A study of Homo sapiens with 6 samples.

Results

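The PARD genes encode the scaffold and adaptor proteins of the PAR complex, which sets up the apical and basal sides of epithelial cells. The family studied here was PARD3, PARD3B, PARD6A, PARD6B and PARD6G, and all 5 members had a probe set among the 14884 named genes of the array. The members were chosen by name with their differences between the groups already known, so their values are given as a description, and no p-value was taken as evidence for any of them. The cells were HK2, an established human cell line derived from proximal tubule epithelium, grown in DMEM with serum. The control group carried an shRNA against GFP, a jellyfish protein absent from human cells, and the other group an shRNA against PGC-1alpha, a coactivator of transcription that promotes the formation of mitochondria. A pLKO.1 lentivirus delivered either shRNA, both groups were selected with puromycin, and RNA was collected 5 days after transduction, 24 hours after puromycin was withdrawn. Each group held 3 arrays labelled as biological replicates, the labels name 1 hairpin target per group, and nothing in them says whether the cultures were transduced separately. PPARGC1A, which encodes PGC-1alpha, had no named probe set, so the knockdown itself was not analysed here.

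In an epithelial cell, PAR3 gathers at the forming tight junction and binds PAR6, an adaptor that holds atypical protein kinase C and is switched on by the GTPase CDC42. The PAR complex works beside the Crumbs complex at the apical membrane, and both are opposed by the Scribble complex and the kinase PAR-1 on the basolateral side. In a proximal tubule cell the resulting apical domain bears the brush border. PARD3 and its relative PARD3B encode the scaffolds, and PARD6A, PARD6B and PARD6G encode 3 PAR6 adaptors.

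Values are log2 intensities after RMA, a method that corrects background, makes the arrays' distributions alike and summarises probes, and a difference is the mean of the shPGC-1alpha arrays minus that of the shGFP arrays. Over the 6 arrays the median ran from 5.00 to 5.04, and arrays of the same group correlated at r = 0.988 to 0.992 over all probe sets, against 0.982 to 0.987 across groups. The number of arrays limits the precision. The labelled cell type was checked against marker genes. Of 12 proximal tubule markers 5 were named, and LRP2 and CUBN, which encode the endocytic receptors of the brush border, were at 3.94 and 3.95 with shGFP, below a guide to background of 4.43, the value that 20% of the named genes did not exceed. The other 3, the membrane peptidases MME and ANPEP and the water channel AQP1, were at 7.77, 4.56 and 5.97. Of the kidney transcription factors, PAX8 was at 11.44, LHX1 at 9.23 and PAX2 at 5.58 with shGFP. Of 3 endothelial markers, PECAM1 at 3.66 and KDR at 4.30 were below the guide and VWF at 4.78 was above it. AQP2, of the distal nephron and collecting duct list, was at 6.09 with shGFP, above the guide. The podocyte genes SYNPO at 8.23 and WT1 at 4.74 were also above it. So were the fibroblast gene LUM at 8.57 and the leukocyte gene CD68 at 11.15, while DCN at 3.80 and CD14 at 4.36 of these lists were below.

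PARD6B and PARD6G were the members with the largest differences, and both were lower in every array with the shRNA against PGC-1alpha. PARD6B read 10.40, 10.36 and 10.42 in shGFP replicates 1 to 3 and 9.36, 9.39 and 9.21 in shPGC-1alpha replicates 1 to 3. The groups lay 0.975 log2 units apart at their nearest arrays, while the arrays within a group spanned 0.0523 and 0.176. The means of 10.39 ± 0.03 (SD, n = 3) and 9.32 ± 0.09 gave a difference of -1.07 (SE 0.07), a 2.10-fold lower level, or 47.5% of the control. Of all named genes, 74 (0.497%) had a difference as low as that of PARD6B or lower. The PAR6 protein that PARD6B encodes is known for its part in tight junction formation in cultured epithelial cells.

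PARD6G read 5.71, 5.67 and 5.64 with shGFP and 4.95, 5.03 and 5.11 with shPGC-1alpha. The nearest arrays of the groups were 0.535 apart, more than the spans of 0.0671 and 0.158 within them. Its means of 5.68 ± 0.03 (SD, n = 3) and 5.03 ± 0.08 differed by -0.65 (SE 0.07), a 1.57-fold lower level or 63.8% of the control. Both means were above the guide of 4.43. In the ranking of all named genes, 414 (2.78%) had a difference as low or lower.

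PARD6A, the remaining PAR6 gene, differed less. It read 6.68, 6.67 and 6.79 with shGFP and 6.37, 6.58 and 6.53 with shPGC-1alpha. The groups did not overlap, but their nearest arrays were only 0.0928 apart and the shPGC-1alpha arrays spanned 0.215. The difference was -0.23 (SE 0.08), or 85.5% of the control.

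**Figure D1:**
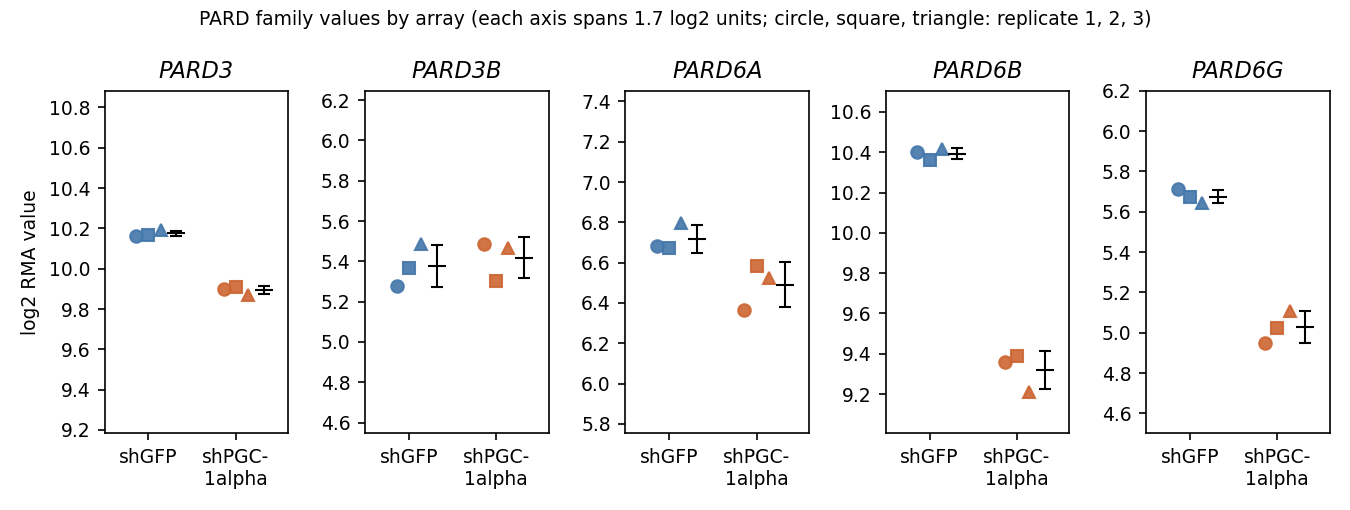
Log2 RMA values of the 5 PARD genes in the 3 shGFP arrays (blue) and the 3 shPGC-1alpha arrays (orange), with the mean and SD of each group in black beside the points. Each panel has its own axis of the same span, and levels are not comparable between panels. PARD6B is lower by 1.07 and PARD6G by 0.65 with groups far apart, PARD3 is lower by 0.28 with little spread, and the groups of PARD3B overlap.

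Of the scaffolds, PARD3 was lower and PARD3B was not. PARD3, which encodes the scaffold that recruits PAR6 and atypical protein kinase C to the junction, read 10.16, 10.17 and 10.19 with shGFP and 9.90, 9.91 and 9.87 with shPGC-1alpha. Its arrays were the closest to each other of all members, with spans of 0.0261 and 0.0386, and the groups were 0.256 apart. The difference was -0.28, or 82.3% of the control, and its SE of 0.06 was moderated by limma towards the spread of other genes and is wider than these arrays alone would give. PARD3B, a relative of PARD3 that lacks its strong binding to atypical protein kinase C, read 5.28, 5.37 and 5.49 with shGFP and 5.48, 5.30 and 5.47 with shPGC-1alpha. Its groups overlapped, and the difference of 0.04 (SE 0.08) became -0.01 without shGFP replicate 1.

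In limma, 3 of the 5 members (PARD6B, PARD6G and PARD3) were below an adjusted p of 0.05, all lower, against 12.2% of all named genes called lower. PARD3 was above that threshold without shGFP replicate 3, which left 2 members. The groups did not overlap for 4 of 5 members, all lower, against 21.5% of all named genes lower without overlap. The median difference of the members was -0.28, and that of all 14884 genes was -0.02. Because the members were chosen on this contrast, these counts describe the choice and were not read further.

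**Figure D2:**
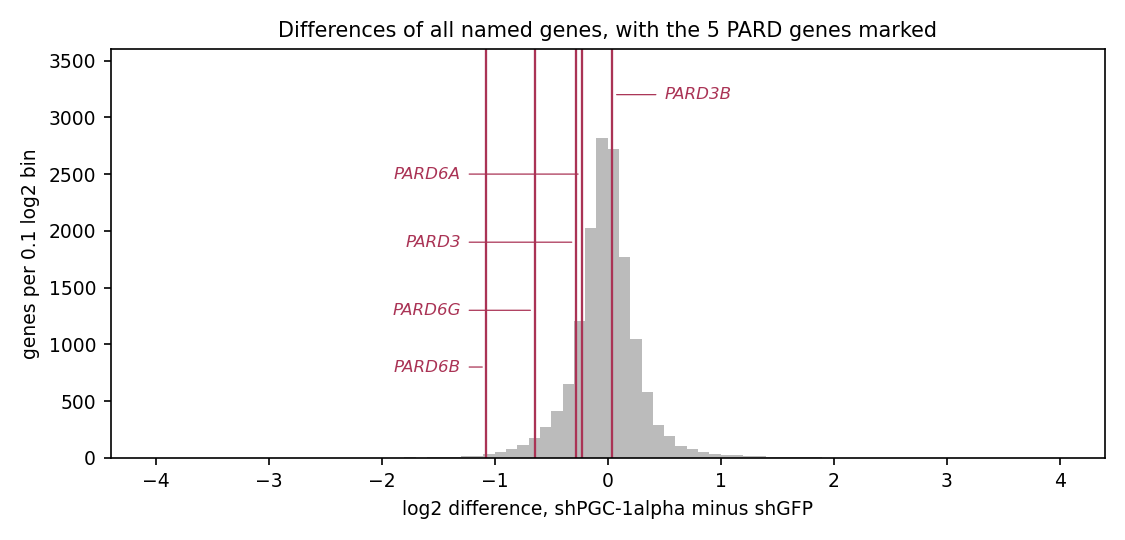
Histogram of the log2 difference, shPGC-1alpha minus shGFP, of the 14884 named genes in bins of 0.1, with a red line at each PARD gene. PARD6B at -1.07 and PARD6G at -0.65 lie in the left tail, PARD3 at -0.28 and PARD6A at -0.23 on the left shoulder, and PARD3B at 0.04 at the centre.

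RefSeq promoters were at hand for 3 members, PARD3B, PARD6A and PARD6G, and are shown because these members ran from no difference to a clear one. Each is the 250 bases before the annotated start in GRCh38.p14, printed 5′ to 3′ on the gene's strand: PARD3B at chr2:204545225-204545474 (+), PARD6A at chr16:67660710-67660959 (+) and PARD6G at chr18:80247515-80247764 (-). Capitals mark the GC box GGGCGG, the motif bound by SP1, and the cAMP response element TGACGTCA, each on either strand.
PARD3B: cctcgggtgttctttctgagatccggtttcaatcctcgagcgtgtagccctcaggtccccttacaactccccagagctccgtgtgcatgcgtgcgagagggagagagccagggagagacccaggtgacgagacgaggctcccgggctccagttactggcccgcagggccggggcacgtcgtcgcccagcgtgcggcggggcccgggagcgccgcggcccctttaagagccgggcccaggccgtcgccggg
PARD6A: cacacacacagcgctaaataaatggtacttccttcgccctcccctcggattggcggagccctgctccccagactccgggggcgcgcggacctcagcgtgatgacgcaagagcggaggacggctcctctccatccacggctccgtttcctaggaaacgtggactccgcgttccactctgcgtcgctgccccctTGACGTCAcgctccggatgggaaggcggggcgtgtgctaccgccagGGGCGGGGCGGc
PARD6G: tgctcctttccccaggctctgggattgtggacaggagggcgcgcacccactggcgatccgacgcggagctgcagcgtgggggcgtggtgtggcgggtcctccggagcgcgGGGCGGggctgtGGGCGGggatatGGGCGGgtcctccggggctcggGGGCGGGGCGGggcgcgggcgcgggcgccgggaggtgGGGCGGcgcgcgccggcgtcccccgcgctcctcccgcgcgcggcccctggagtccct
The PARD6G promoter held 6 GC boxes and 80.4% G and C, a share that 97.4% of the 35097 promoters of the table did not exceed (median 58.0%). The PARD6A promoter held 2 GC boxes, which overlap in 1 base, and 66.8% G and C, and the PARD3B promoter held none at 69.6%. A GC box was present in 42.6% of all promoters. PARD6A was the member with a cAMP response element, 58 bases before the start, a motif in 1.65% of all promoters. The AAGGTCA element of the oestrogen-related receptors, nuclear receptors that PGC-1alpha coactivates, had no match in the 3 windows and one in 3.44% of all promoters. The core CGCATGCG of NRF1, a further partner of PGC-1alpha, also had no match, against 1.73% of all promoters. The E-box CAGGTG, bound by Snail and ZEB repressors, had 1 match, in PARD3B, and was present in 17.5% of all promoters. These windows were searched on both strands, and a match or its absence is a description of the letters.

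The measured genes beside the members did not share one direction. PARD6G overlaps PARD6G-AS1, a long noncoding RNA on the opposite strand, which read 6.06 ± 0.03 (SD, n = 3) with shGFP and 5.93 ± 0.04 with shPGC-1alpha, a difference of -0.13 that did not pass (limma adjusted p 0.174). Whether the probes of either gene pick up the other was not tested. ADNP2, the nearest measured gene, was at -0.22 (limma adjusted p 0.0868). Next to PARD6B, BCAS4 was at -0.22 (limma adjusted p 0.0737) and MIR1302-5 at -0.05. Next to PARD6A, the telomere protein gene ACD fell by 0.53 (limma adjusted p 0.0018), a larger decrease than that of PARD6A itself, while C16orf86 was at 0.05. CUL2, a cullin gene next to PARD3, rose by 0.38 (limma adjusted p 0.0075), and the semaphorin receptor gene NRP2, next to PARD3B, rose by 0.55 (limma adjusted p 0.00091).

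The genes whose values over the 6 arrays were closest to PARD6B, after each gene's own mean was taken away, were RDH10, a retinol dehydrogenase, LSR, a receptor of tricellular junctions, and AK5, an adenylate kinase. Their root mean square distances from PARD6B were 0.0334, 0.0506 and 0.0587 log2 units, among 11916 protein-coding genes, and their differences were -1.04, -1.05 and -1.11. LSR read 9.41, 9.42 and 9.42 with shGFP and 8.41, 8.35 and 8.33 with shPGC-1alpha. The closest to PARD6G were the peroxiredoxin PRDX2, the AMP deaminase AMPD2 and the apoptosis inhibitor BIRC7, at 0.0298, 0.0337 and 0.0370, with differences of -0.63, -0.59 and -0.68. This measure rests on 6 arrays in 2 groups, so it mostly finds genes with a similar difference between the groups.

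**Figure D3:**
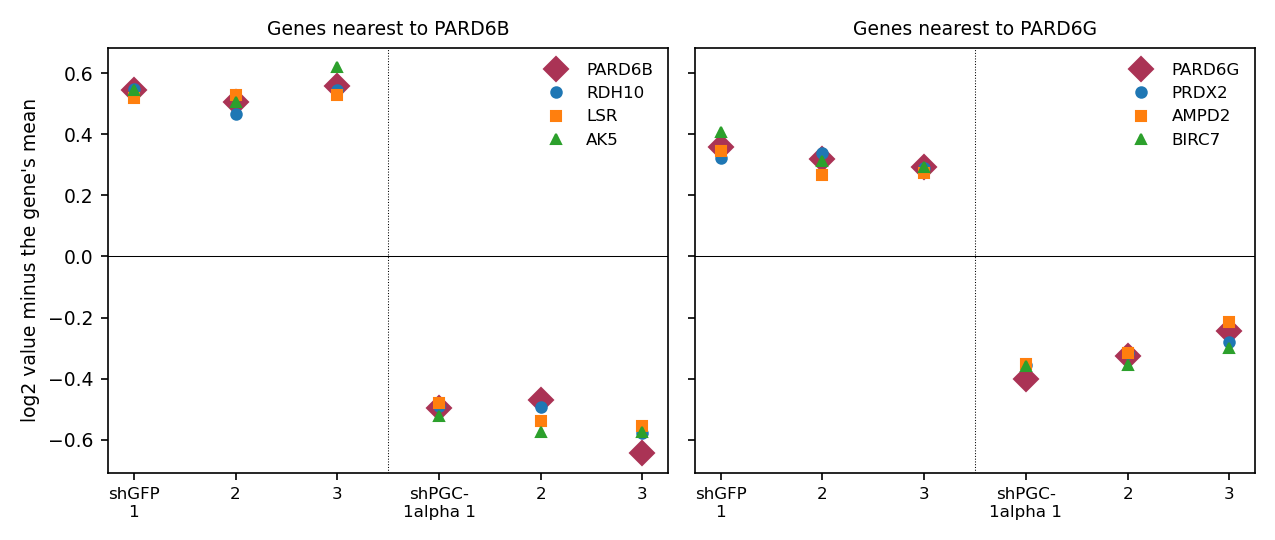
Log2 value minus the gene's own mean in each of the 6 arrays, for PARD6B and the 3 protein-coding genes nearest to it (left) and for PARD6G and its 3 nearest (right). All 4 genes of each panel lie above 0 in the shGFP arrays and below 0 in the shPGC-1alpha arrays, with root mean square distances of 0.0298 to 0.0587.

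Partners of the PAR complex moved in both directions. Over 9 lists of polarity genes other than the members, 110 of 163 genes were named, of which 22 rose and 22 fell in limma (adjusted p below 0.05) with a median difference of -0.03. Of all named genes 9.58% rose and 12.2% fell, or 21.8% together, against 40.0% of the listed genes together. The lists were chosen with earlier results of these data known, so these shares in part describe the choice and were not read further. The listed genes are less often dim. Among the 11907 named genes above the guide to background 1602 rose and 2059 fell, against 22 and 23 of 106 listed genes. By list the share called ran from 20% of the CDC42 effectors to 54.55% of the planar cell polarity genes. Of the 12 measured genes that act on or with atypical protein kinase C, CDC42 and Rac, 5 rose and 1 fell. The one that fell was TIAM2, an activator of Rac, from 6.47 ± 0.07 (SD, n = 3) to 5.60 ± 0.03, a difference of -0.87 (limma adjusted p 0.00021). Its relative TIAM1, whose protein binds PAR3, was at -0.13 and did not pass. WWC1, which encodes KIBRA, a binding partner of atypical protein kinase C, rose by 0.67, the kinase's adaptor SQSTM1 by 0.50, and ARHGAP17, which switches CDC42 off, by 0.51. ECT2 rose by 0.26, a call lost without any 1 array other than shPGC-1alpha replicate 3. The kinase genes PRKCI and PRKCZ and CDC42 itself were not named here.

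Of 15 measured CDC42 effectors, 3 rose in limma and 0 fell, also 0 at an unadjusted p below 0.05. The share called was 20%, against 21.8% of all named genes. The median of the list was 0.04. CDC42EP1 rose by 0.74 and CDC42EP2 by 0.70, which are members of the Borg family of cytoskeletal effectors, and CDC42SE2 rose by 0.73. Without shPGC-1alpha replicate 1, CDC42EP3 also passed, as lower, and its difference over all arrays was -0.23.

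Of 13 measured genes listed under the Crumbs complex, which include YAP1 and the AMOT family, 4 fell and 1 rose, with a median of -0.17. PATJ, a scaffold with many PDZ domains that joins the Crumbs complex to the tight junction, read 8.49, 8.24 and 8.23 with shGFP and 7.10, 7.05 and 7.09 with shPGC-1alpha. The groups were far apart, and the difference was -1.24 (SE 0.09, limma adjusted p 0.00016). EPB41L5, a FERM protein that binds Crumbs, fell by 0.95, and MPDZ, the relative of PATJ, fell by 0.69. LIN7C, a small scaffold of the complex, rose by 0.36, whereas its relative LIN7A fell by 0.60. The transmembrane genes CRB1, CRB2 and CRB3 were at -0.26, -0.08 and -0.17 and did not pass, and PALS1 was not named here.

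Among 8 measured genes listed under the Scribble complex, with partners and the enzyme gene GUK1, 3 fell and 1 rose, with a median of -0.13. LRRC1, a relative of Scribble, read 7.72, 7.74 and 7.77 with shGFP and 6.80, 6.64 and 6.70 with shPGC-1alpha, a difference of -1.03 (SE 0.07, limma adjusted p 0.00014). ERBIN, of the same protein family, fell by 0.45 and GIT1 by 0.47, while ARHGEF7, the exchange factor that Scribble anchors, rose by 0.41, a call lost with the mean of its probe sets. SCRIB at -0.16, LLGL1 at -0.02 and LLGL2 at -0.09 did not pass, and DLG1, DLG2, DLG3, DLG4 and DLG5 were not named here.

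The further PAR genes of the list are homologues of PAR-1, PAR-4 and PAR-5, which are kinases and the phosphoprotein-binding family of 14-3-3 proteins. Of 10 measured, 2 rose and 2 fell, with a median of 0.01. SFN, the epithelial 14-3-3 protein sigma, read 7.89, 7.95 and 7.79 with shGFP and 6.50, 6.56 and 6.63 with shPGC-1alpha, a difference of -1.32 (SE 0.07, limma adjusted p 7e-05). The other 14-3-3 genes of the list, YWHAB, YWHAE, YWHAG, YWHAH, YWHAQ and YWHAZ, were not named here. MARK3, a PAR-1 kinase, rose by 0.39, whereas MARK1, MARK2 and MARK4 were at -0.12, 0.06 and -0.13 and did not pass. STK11, the PAR-4 kinase, was at 0.21 and did not pass. Among its cofactors STRADB fell by 0.29 and CAB39L rose by 0.42. The call of STRADB was lost without shGFP replicate 2, and that of CAB39L without any 1 array other than shPGC-1alpha replicate 2.

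Of 13 measured junction receptors and scaffolds, which include proteins that bring PAR3 to cell contacts, 5 fell and 2 rose, with a median of -0.06. CGNL1, the junction protein paracingulin, fell by 0.94 (SE 0.08), and TJP1, the scaffold ZO-1, by 0.47 (SE 0.06). NECTIN2 and JAM3, adhesion receptors of the families that bind PAR3, rose by 0.67 and 0.37. Their relatives NECTIN1 at 0.04, NECTIN3 at 0.04, NECTIN4 at 0.10 and JAM2 at 0.06 did not pass. F11R, AFDN and CDH1 of this list were among the genes not named here. The strand proteins OCLN, MARVELD3 and MARVELD2, at -0.57, -0.54 and -0.36, passed with all arrays. All 3 calls were lost without shGFP replicate 2 or 3, which left 2 genes lower. Without shPGC-1alpha replicate 3 the calls of MARVELD2 and MARVELD3 were lost, which left 3, and without each of the other arrays 1 of these 2 calls was lost.

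Of 20 genes of the apical membrane and apical delivery, 3 rose and 4 fell, with a median of -0.13. RAB11FIP1 and RAB11FIP2, effectors of the recycling GTPase RAB11, fell by 0.62 and 0.40, and RAB3IP, which activates RAB8, fell by 0.54 to a mean of 4.51. STX3, the apical fusion protein, rose by 0.37. Ezrin (EZR), which ties the brush border membrane to actin, fell by 0.28, a call lost without any 1 array other than shGFP replicate 3 and shPGC-1alpha replicate 2. RAB11FIP5 rose by 0.30, a call lost without any 1 array other than shGFP replicate 3. With arrays centred on their median, 5 rather than 3 genes of this list rose (EXOC8 and MSN were added), and with all probe sets fitted it was 1 (EXOC5 and RAB11FIP5 were lost).

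Planar cell polarity genes, which orient cells within the sheet, were measured for comparison, and 3 of 11 rose and 3 fell, with a median of -0.09. The list's genes VANGL1, VANGL2, CELSR1, CELSR2, CELSR3, DVL1, DVL2, DVL3 and INVS were not named here. PRICKLE1 fell by 0.62 while its relative PRICKLE2 rose by 0.51, and the receptor FZD6 and FJX1 rose by 0.60 and 0.54. The calls of FAT4 and ANKRD6, both lower, were lost when any 1 array other than shGFP replicate 2 or shPGC-1alpha replicate 1 was left out alone, and 1 gene was then lower. Without shPGC-1alpha replicate 1 the call of FAT4 alone was lost.

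Of 12 listed genes of the TGF-beta arm and of repressors that act on polarity genes, 8 were measured. The genes TGFB1, TGFB2, TGFBR1 and TGFBR2 were not named here, so no TGF-beta ligand or receptor of the list was read. Of the 8, 2 rose and 0 fell in limma, with a median of 0.16. The share called was 25%, near the 21.8% of all named genes. At an unadjusted p below 0.05, 3 were higher and 1 lower. ZEB2, a repressor of epithelial genes, rose from 6.52 ± 0.04 (SD, n = 3) to 7.86 ± 0.07, a difference of 1.34 (limma adjusted p 5.1e-05), and SMURF2, a ubiquitin ligase, rose by 0.51. ZEB1 at 0.16, SNAI1 at -0.14 and SNAI2 at -0.28 did not pass, although SNAI2 passed as lower without shGFP replicate 1, among genes above the guide to background and with a trend in the variance. The other repressors TWIST1 and TWIST2 were at 0.04 and 0.23.

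**Figure D4:**
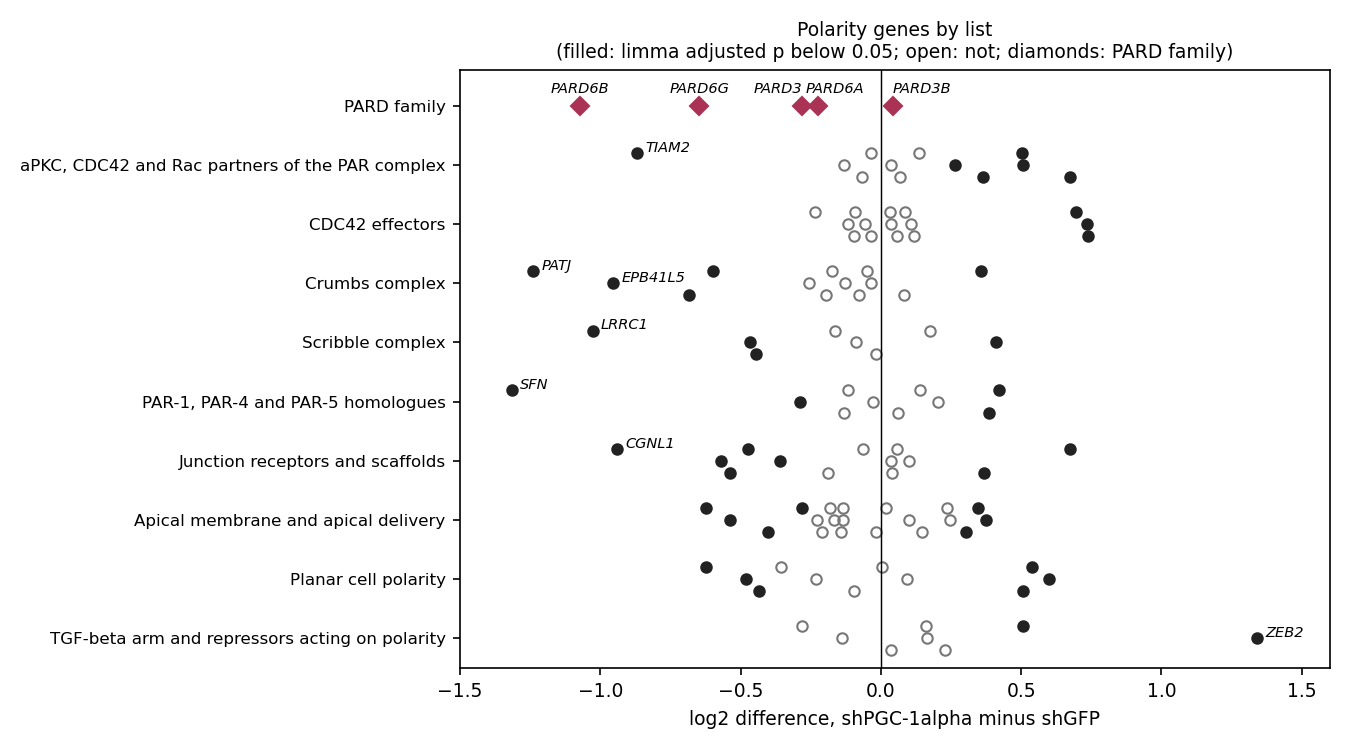
Log2 difference, shPGC-1alpha minus shGFP, of the PARD genes (red diamonds) and of each measured gene in the 9 polarity lists, filled where the limma adjusted p was below 0.05 and open where it was not. Calls lie on both sides of 0, with 22 genes higher and 22 lower; PATJ at -1.24, LRRC1 at -1.03 and SFN at -1.32 lie near or below PARD6B at -1.07, and ZEB2 at 1.34 is the highest.

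Epithelial markers moved in both directions. Of 9 measured, 4 fell and 1 rose in limma, with a median of -0.31, and CDH1 of the list was not named here. Of all named genes 12.2% fell and 9.58% rose. KRT19 was at -1.42, the adhesion molecule EPCAM at -0.73, the splicing regulator ESRP1 at -0.62 with a mean of 3.90 in the shPGC-1alpha group, below the guide to background, and KRT18 at -0.31, while CLDN1 rose by 1.33. KRT7 at -0.31, OVOL1 at -0.19, KRT8 at -0.09 and CLDN4 at 0.30 did not pass. The summed linear level of the list, which CLDN1 dominates, ran from 11.87 to 11.94 on the log2 scale with shGFP and from 12.41 to 12.51 with shPGC-1alpha. Of 2 measured fibroblast markers, LUM rose by 0.76, and DCN was at 3.80 with shGFP, below the guide to background, and at 4.63 with shPGC-1alpha, also a call in limma. The summed level ran from 8.59 to 8.64 and from 9.29 to 9.46. Collagen markers of that list were not named here. Markers of other lists moved too: the podocyte gene SYNPO was at -0.93 (limma adjusted p 0.00076), MME of the proximal tubule at -0.61 (0.0011) and LHX1 at -0.54 (0.0024). PAX8 rose by 0.38 (limma adjusted p 0.0064) and the leukocyte list's CD68 by 0.34 (0.0090). The summed levels of the proximal tubule list ran from 8.34 to 8.47 with shGFP and from 8.01 to 8.06 with shPGC-1alpha, and those of the podocyte list from 8.23 to 8.42 and from 7.44 to 7.63. Those of the kidney lineage list ran from 11.69 to 11.78 and from 11.95 to 12.05, and those of the leukocyte list from 11.13 to 11.19 and from 11.43 to 11.54. Each of these sums is dominated by its brightest gene, MME, SYNPO, PAX8 and CD68 in turn. Of the other measured genes of these lists only LHX1 passed, as lower, and the median of the proximal tubule list was -0.003. The part of these shifts in the values of the PARD genes was not tested.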

How the data were processed

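The authors deposited 1 table of log2 expression values for 53617 probe sets on 6 arrays. The submitters' processing notes name RMA and Affymetrix Expression Console, with versions not given in the sources used here. Sample titles gave each array its group and replicate number. A platform annotation table named 16098 probe sets, and all their gene identifiers matched RefSeq (GRCh38.p14), which gave 14884 genes. A gene with several probe sets was represented by the brightest on average; each PARD gene had 1. No filter on dim genes was applied.

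The 3 shPGC-1alpha arrays were tested against the 3 shGFP arrays in limma 3.58.1 (R 4.3.3) by lmFit and eBayes without a replicate block, with Benjamini-Hochberg adjustment over the 14884 genes and a threshold of 0.05. An exact permutation test of 3 arrays against 3 cannot go below 0.1. On simulated data with the same genes and independent normal noise, 200 genes were changed by 0.5, 1 or 2 log2 units. These changes were recovered at 61.2%, 86.6% and 98.5%, and 0 genes were called when none changed. The data held 3243 calls, and noise shared between genes was not simulated, so these rates need not hold for the data. Spread between arrays, which may be technical, is what the p-values reflect.

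The members and lists were chosen with earlier results of these data known. In each list the text names up to 4 genes with the smallest p past the threshold, or 2 where none passed; neighbours, promoter motifs and further list members were chosen after their values were seen. Likeness was computed for members with a difference of at least 0.3, naming the 3 nearest genes. Promoters are from RefSeq. Alternatives left out each array, used the replicate number as a block, other probe set choices, scalings, variance models, a filter and all probe sets.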

Additional observations from a re-analysis of the deposited data

How the results depend on the processing

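PARD6B and PARD6G were lower under every alternative run, at -1.11 to -1.02 and -0.69 to -0.61 with 1 array left out, and PARD6A at -0.27 to -0.16. PARD3 was at -0.29 to -0.27 with 1 array left out and moved to -0.23 with arrays centred on their median. PARD3B, at -0.01 to 0.10 with 1 array left out, had no stable sign. With the fit and its adjustment over all 53617 probe sets, the genes that rose and fell numbered 767 and 970 in place of 1426 and 1817, and PARD3 was not below the threshold. With 1 array left out, 1011 to 1170 rose and 1301 to 1502 fell. The polarity lists then held 19 to 21 genes higher and 17 to 20 lower, in place of 22 and 22. With arrays centred on their median the balance turned, as 1867 genes rose and 1440 fell. The polarity lists held 24 higher and 20 lower under that setting. Whether the replicate numbers pair the arrays was not settled. The correlations of deviations from the group mean were 0.117, 0.0874 and 0.023 for equal numbers. For unequal numbers they ran from -0.123 to 0.0573, and for each shPGC-1alpha array the equal number gave the highest value. With the replicate block, 1221 genes rose and 1552 fell, and 22 and 18 in the polarity lists. Of the list genes, ARHGEF7, EXOC5, PRICKLE2 and ANKRD6 lost their calls with the mean of a gene's probe sets, MARVELD2, MARVELD3, EZR and ANKRD6 with the block, and ECT2, JAM3, STRADB, CAB39L, OCLN, MARVELD2, MARVELD3, EZR, EXOC5, RAB11FIP5, FAT4 and ANKRD6 with all probe sets fitted. Each member had 1 probe set, so no other probe set gave a value. RMA values carry no detection calls, and PARD3B and PARD6G lay nearest to the guide to background.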
